A study of Mus musculus with 4 samples.

Results

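The peaks described here are N6-methyladenosine (m6A) peaks that were called in the 3' UTRs of mRNAs from control mouse hearts and that no peak of the treated hearts touched. They were chosen from the authors' deposited control list as the lines on protein-coding transcripts annotated wholly to the 3' UTR whose exonic blocks shared no base, on the same strand, with any line of the treated list. This rule kept 1757 of 3958 control 3' UTR lines (44.4%, 95% Wilson interval 42.8% to 45.9%, which covers counting error only), out of 39717 lines in both lists. Over all NC lines on protein-coding transcripts, 50% (8577 of 17165) had no such overlap. In the other direction, 2439 of 4881 CHAPIR 3' UTR lines (50%), on 1394 genes, shared no base with an NC line. A line is 1 peak on 1 transcript, so a peak shared by several transcripts recurs. The 1757 lines had 1703 distinct positions, merged into 1144 sites in 1037 genes.

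The measurements came from hearts of C57BL/6 mice that had carried an osmotic minipump for 14 days. The treated mice were given a CHAPIR mimic at 30 mg/kg, CHAPIR being a piRNA (a small RNA of the kind that PIWI proteins bind), and the controls (NC) were given a scrambled mimic in the same way, at a dose the labels do not state. Both groups therefore shared the strain, the pump and a small RNA cargo, and all samples were labelled 2 weeks. In MeRIP-seq, mRNA is broken into short fragments, those with m6A are captured with an antibody, and captured and input fragments are sequenced side by side. Each condition had 1 immunoprecipitated and 1 input library, so the spread between animals was not measured, no test between conditions could be made, and every difference below is one between these libraries.

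m6A is written by a nuclear complex built on METTL3 and METTL14, which favours a short motif centred on a methylated adenosine, often within GGAC. In most mRNAs the mark lies in long internal exons, around the stop codon and along the 3' UTR, and proteins of the YTH family that bind it there act on the stability and translation of the mRNA. In the heart the METTL3 complex has been tied to the growth of cardiomyocytes.

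The lists differed in size and in some marker genes. The NC list held 23155 lines in 5638 genes and the CHAPIR list 16562 lines in 4572 genes, and the read depth of the libraries is unknown, so a missing peak means that none was called, not that the mark was absent. Genes of the contractile sarcomere and Z-disc were well represented, with 31 of 38 that had any peak having one in both lists. Markers of adipocytes, epicardium and glia had a peak in 6 cases, and 5 of these genes (Adipoq, Cfd, Cidea and Plin1 among them) had one in the NC list only. Of 15 macrophage and immune markers, 9 had one in the CHAPIR list only and 1, F13a1, in the NC list only. Of 11 atrial markers, 4 (Myl4, Myl7, Nppa and Sln) had one in the CHAPIR list only, 2 (Dkk3 and Kcna5) in the NC list only and 5 in both. In such bulk tissue fewer cells of a type and less RNA per cell cannot be told apart. The X-inactivation transcript Xist (10 lines, best 5.50-fold) and its antisense partner Tsix had peaks in the NC list only, while the Y-linked genes Ddx3y (3.01-fold) and Eif2s3y (2.77-fold) had them in the CHAPIR list only. The labels do not give the sex of the animals, and in these single libraries a difference in sex and the treatment cannot be told apart. Without the X chromosome the share of NC 3' UTR positions left untouched was 44.4% (1679 of 3780), against 44.5% of 3829 on all chromosomes. This leaves out X-linked positions only, and the part of sex in the autosomal ones was not tested.

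Sequence was at hand for 3 of the 1037 genes, where a control only peak ran into the promoter window that RefSeq (GRCm38.p6) gives for a neighbouring gene. All 3 peaks ended within 2 bases of the end of their gene, and they are shown because they let the methylation motif and the polyadenylation signal be seen inside the peaks. Sec24c encodes a cargo-binding subunit of the COPII vesicle coat, Slc12a4 a potassium and chloride cotransporter, and Tmem82 a transmembrane protein. GGAC and AATAAA, the canonical polyadenylation signal, were searched on the strand of the peak only, since the peaks are on RNA, and the letters of these motifs cannot overlap each other. They are in capitals below, in windows of 30 bases written 5′ to 3′ as DNA.
Sec24c, chr14:20694760-20694789, plus strand: atgcccctgctatGGACctttcatttcttt
Sec24c, chr14:20694818-20694847, plus strand: aatttgtaaagaAATAAAataagatgtaac
Slc12a4, chr8:105943598-105943627, minus strand: ctgacttttttcAATAAAacattgtgtact
Tmem82, chr4:141614388-141614417, minus strand: cctagagaggtggGGACatgaaggcctcag
Tmem82, chr4:141614347-141614376, minus strand: ctctcttggagatGGACagcgtcagcagac
Tmem82, chr4:141614307-141614336, minus strand: tggctgggcaagaGGACaattgtgacctca
Tmem82, chr4:141614236-141614265, minus strand: ctcgccgaagacAATAAAggtgacttttct

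The Tmem82 peak (240 bases, 9.03-fold enrichment over input in the NC list, no peak in the CHAPIR list) held 3 GGAC matches and 1 AATAAA in the 187 bases that could be read. The Sec24c peak (241 bases, 7.15-fold) held 1 of each in 133 bases, and the Slc12a4 peak (210 bases, 3.56-fold) held AATAAA and no GGAC in 63 bases. Every peak thus had the polyadenylation signal at its 3' side, and in Sec24c and Tmem82 the GGAC matches lay upstream of it. Only the 3' part of each peak could be read, and each ended at its gene end. This order was therefore largely set by how the stretches were obtained. Stretches at the same place of the 32851 RefSeq promoter windows held at least 1 GGAC in 37.4%, 20% and 50% of cases. These values are for the lengths read in Sec24c, Slc12a4 and Tmem82, so 1 GGAC match is common in such windows. AATAAA was in 6.44%, 3.25% and 5.67% of them. Promoter windows are not 3' UTRs, so the shares give no rate for 3' UTRs, nor for 3 matches as in Tmem82. These genes were picked because their sequence was at hand, after their values were seen.

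The control only peaks were as enriched as the other 3' UTR peaks of the same list but narrower and closer to the authors' threshold. The fold, the FDR and the width are the authors' values for peaks called on the library that the rule used, so they are a description. The fold, the ratio of immunoprecipitated over input signal, had a median of 3.33 (quartiles 2.46 and 5.10, range 1.27 to 29.5), beside 3.25 (2.41 to 4.87) for the 2201 NC 3' UTR lines that a CHAPIR peak overlapped. Width had a median of 149 exonic bases (90 to 208), beside 211 (151 to 330). An FDR at or under 1e-05 was reached by 360 lines (20.5%, interval 18.7% to 22.4%), beside 1413 of the overlapped lines (64.2%). All 1757 lines were a single block, not split by an intron.

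**Figure D1:**
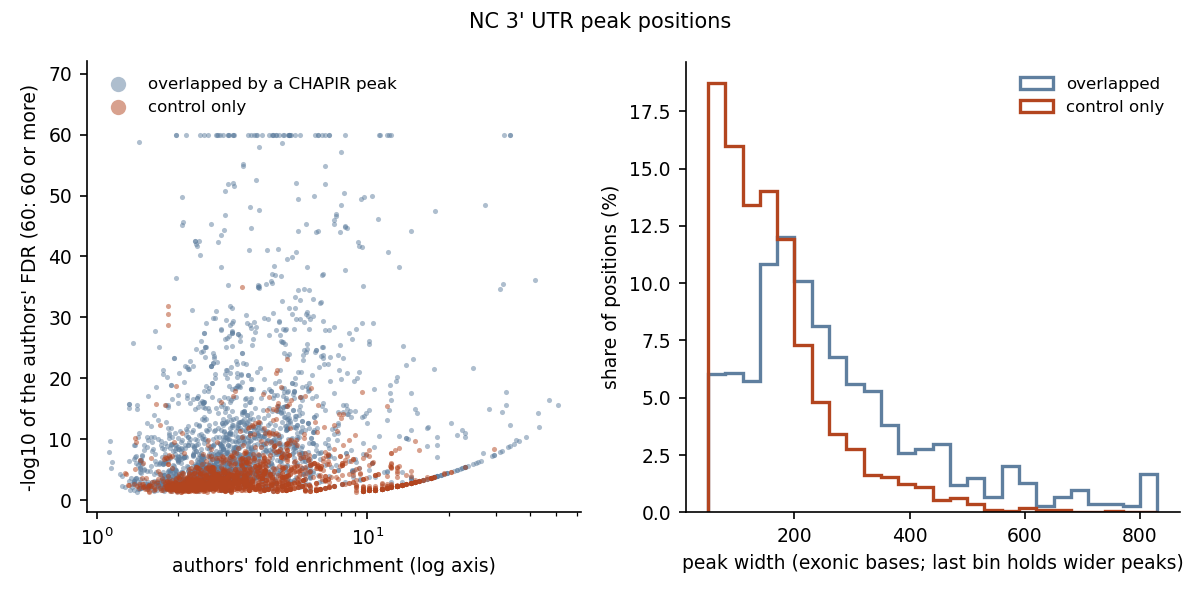
Left, each NC 3' UTR position by the authors' fold enrichment (log axis) and by −log10 of the authors' FDR, with values above 60 drawn at 60. Right, the share of positions by width in exonic bases. Control only positions (orange) span the same folds as overlapped ones (blue) up to 29.5 but lie low on the FDR axis, and their widths gather at the narrow end, with medians of 149 and 211 bases.

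The strongest control only peaks by FDR lay on mRNAs for proteins of diverse duties. The smallest FDR, 1e-35, belonged to Oaz2, which encodes an antizyme that restrains polyamine synthesis. Its peak (chr9:65689159-65689457 in GRCm38, 299 bases, 3.43-fold) lay 634 bases upstream of a 3' UTR peak that both lists held, at 2.43-fold in the NC list and 4.57-fold in the CHAPIR list. Dynll2, which encodes a light chain of the dynein motor, had the next smallest FDR (1.26e-32) at a fold of only 1.83. Actr1b, an actin-related subunit of dynactin, had 1 NC line in all, a wide peak of 656 bases at 5.03-fold (chr1:36698412-36699067). The CHAPIR list had a different peak on Actr1b, 180 bases wide and 118 bases further toward the gene end, at 5.72-fold. Folds are not scaled between the lists, and such pairs are set side by side only to show where each list placed its peak.

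Efnb3, which encodes the membrane ligand ephrin-B3, showed the reverse order, its NC peak (477 bases, 4.12-fold) lying 118 bases nearer to the gene end than the CHAPIR peak of 179 bases at 2.70-fold. For Cd200, which encodes a surface glycoprotein that restrains myeloid cells, the 3' UTR peak (447 bases, 3.23-fold) was control only. A peak across exons of a noncoding transcript of the gene was in both lists, at 4.06-fold and 3.95-fold. Wdr13, an X-linked gene, had an NC peak of 421 bases at 4.65-fold, 888 bases away from its nearest CHAPIR peak. In Prpf19, a subunit of the spliceosome, the control only line (179 bases, 1.97-fold) was nested in another transcript's NC peak (270 bases, 6.08-fold) that a CHAPIR peak of 61 bases did overlap. Prpf19 therefore belonged to the set by the rule although its site was linked to a CHAPIR peak, as were 27 of 1703 positions (1.59%).

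The other genes in this group had no CHAPIR peak in any region. Ormdl3, a regulator of sphingolipid synthesis, had 1 NC line (359 bases, 4.79-fold, FDR 2.51e-19). Tns3, which encodes the focal adhesion protein tensin 3, had a peak of 510 bases at 6.21-fold, and Tssc4, a splicing assembly factor, had one of 210 bases at 9.59-fold that ended 6 bases before the end of the gene.

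The highest folds ran from 17.2 to 29.5. Auts2, a transcriptional regulator that works with Polycomb complexes, led with 29.5-fold (FDR 4.07e-09), and Mob4, a member of the STRIPAK phosphatase and kinase complex, followed with 23.1-fold. Tox4, an HMG-box protein, and Yeats2, a histone acyl reader of the ATAC complex, both had 20.4-fold at the same FDR, 2.45e-05. Tmem44 and Ikbip had 19.3-fold. The Wnt pathway gene Frat1, which encodes an inhibitor of GSK3, the peroxisomal membrane gene Pxmp4 and the platelet-activating factor receptor gene Ptafr had 17.7-fold at 1 shared FDR, 0.000162, and Twist1, a mesenchymal transcription factor gene, was 1 of 5 genes at 17.2-fold and an FDR of 0.000234. Of these 10 genes, Ikbip, Frat1 and Pxmp4 had CHAPIR peaks elsewhere on the gene and the other 7 had none.

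Such repeated values were common. A fold of 10 or more was listed for 181 lines (10.3%) of 131 genes, which took only 26 distinct values, and 25 of those lines had an FDR at or under 1e-05. Of the overlapped lines, 156 (7.09%) had such folds, with 74 distinct values and 93 at that FDR. One value, 12.9-fold, was listed for 24 lines of 18 genes. High folds among control only peaks were thus mostly not the peaks with the smallest FDR.

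For most of the genes, the CHAPIR list held no peak in any region. Of the 1037 genes with a control only 3' UTR peak, 649 (62.6%, interval 59.6% to 65.5%) had no CHAPIR peak, 249 (24%) had one wholly in the 3' UTR but elsewhere, and 139 (13.4%) had CHAPIR peaks in other regions only. The same 649 genes were 30.9% of the 2097 genes with an NC 3' UTR peak, of which the other 1060 had only overlapped ones and so held a CHAPIR peak on the site by the rule. Of all 5638 genes with an NC peak, 36.9% lacked a CHAPIR peak. Among the 1853 genes with control only coding sequence peaks the share without a CHAPIR peak was 54.3% (1007 genes). Of the 649 genes, 379 had no NC line other than their control only 3' UTR lines. The best control only peak of the 649 had a median fold of 3.98, beside 2.91 for that of the 388 genes that had a CHAPIR peak. An FDR at or under 1e-05 was reached by the best peak of 135 (20.8%) and 98 (25.3%) of them.

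**Figure D2:**
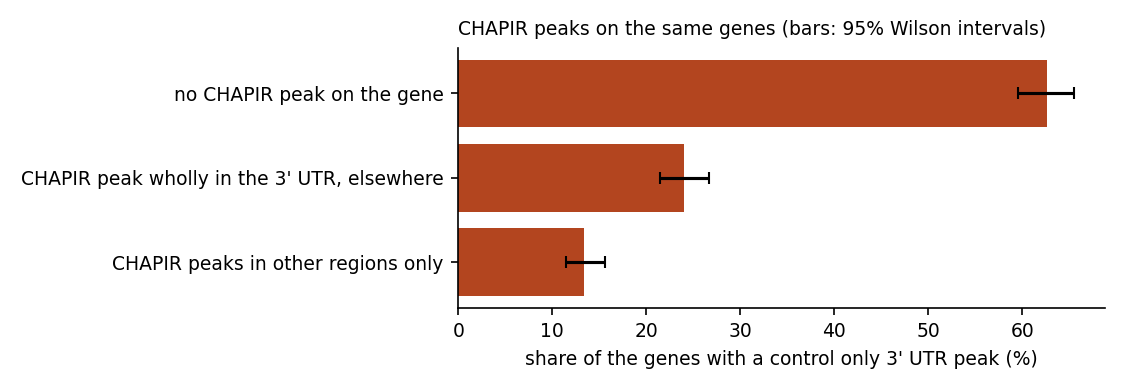
Share of the 1037 genes with a control only 3' UTR peak in each of 3 classes by where the CHAPIR list had peaks on the same gene. Bars are shares in percent and error bars are 95% Wilson intervals, which cover counting error only. The class without any CHAPIR peak holds 62.6% and the intervals of the 3 classes do not overlap.

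Many of the genes had no NC peak besides their control only 3' UTR peaks, of which some had more than 1. Of the 1037 genes, 428 (41.3%) had no NC line outside the set. Another 313 (30.2%) had such lines, none overlapped by a CHAPIR peak, and 296 (28.5%) had at least 1 that a CHAPIR peak did overlap. NC coding sequence peaks were on 264 of them (25.5%), beside 310 (29.2%) of the 1060 genes whose NC 3' UTR peaks were all overlapped. NC 5' UTR peaks were on 20 (1.93%) and 49 (4.62%). By region, the share of NC lines on protein-coding transcripts that no CHAPIR peak touched was 61.6% in the coding sequence, 62.3% in the 5' UTR, 44.4% in the 3' UTR and 28.5% for peaks that crossed from the coding sequence into the 3' UTR. The 3' UTR thus had a lower share than the coding sequence. The annotation of the control only positions was mostly plain: 1224 (71.9%) were 3' UTR of protein-coding transcripts by every NC line that overlapped them, 88 (5.17%) were overlapped by a line that reached coding sequence, and 426 (25%) by a line of another transcript type.

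Several genes carried more than 1 control only 3' UTR site. Such genes numbered 93, and 85 of them had 2 sites. Fbxo32, which encodes the muscle ubiquitin ligase atrogin-1, had the most, with 5 sites spread over chr15:58178334-58180369 at 1.59-fold to 3.48-fold. The main Fbxo32 peak, nearer to the stop codon, was in both lists, at 7.22-fold over 510 bases in NC and 9.55-fold over 570 bases in CHAPIR, and CHAPIR also had a peak of 121 bases at 3.88-fold among the control only sites. What set the lists apart on Fbxo32 was therefore the weaker sites downstream of the shared peak.

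Trim56, which encodes a ubiquitin ligase of innate immunity, had 4 control only sites at 2.86-fold to 10.2-fold on both sides of a shared 3' UTR peak (4.29-fold in NC, 5.69-fold in CHAPIR). Samd4, which encodes the RNA-binding repressor Smaug1, had 4 sites at 1.64-fold to 4.14-fold, while the peaks that both lists held were at its 5' end. In Zswim9, 4 sites at 3.54-fold to 13.4-fold stood on a gene without CHAPIR peaks. Larp4b, which encodes a protein that binds mRNA and supports its stability, had 4 sites at 2.03-fold to 2.80-fold, and a CHAPIR peak of 151 bases at 7.49-fold lay beyond the last of them. Among the widest control only peaks were those of B4galt7, a galactosyltransferase of proteoglycan synthesis (742 bases, 15.6-fold), Actr1b, the transcription factor IID subunit gene Taf8 (628 bases, 3.98-fold) and the forkhead factor gene Foxo4 (627 bases, 3.38-fold).

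The control only peaks lay farther from the gene end than other 3' UTR peaks. The 3' edge was a median of 1045.5 bases (quartiles 387.75 and 2218.5) before the RefSeq gene end, over 1628 positions inside their gene's span. It was 814.5 bases for overlapped NC peaks, 906 bases for overlapped CHAPIR peaks and 208.5 bases for the CHAPIR 3' UTR peaks that no NC peak touched. Only 12% of the control only peaks ended within 100 bases of the gene end, beside 24.6%, 25.8% and 46.1% of the other sets. The order of the medians of control only and CHAPIR only peaks was the same with 1 position a gene (962 and 131 bases), at an FDR at or under 1e-05 (996 and 31), and for peaks of 200 bases or less (1046 and 137). At that FDR the overlapped NC peaks had a median of 958.5 bases, close to that of the control only peaks. RefSeq spans end at the longest transcript, and these distances are along the genome, not along spliced RNA.

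**Figure D3:**
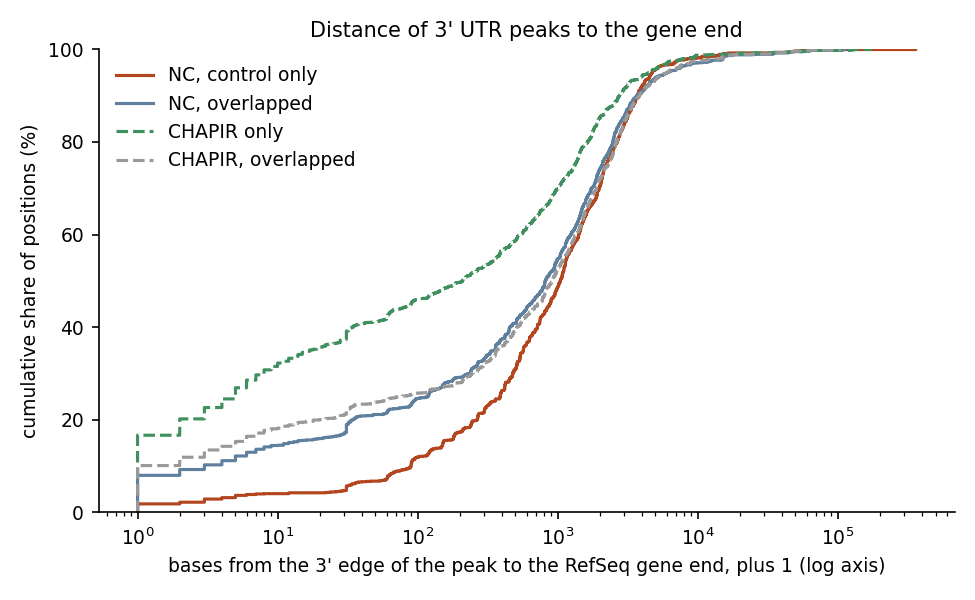
Cumulative share (percent) of 3' UTR positions by distance in bases, plus 1, from the 3' edge of the peak to the RefSeq gene end on a log axis, for 4 sets of peaks. The curve of the control only peaks (orange, median 1045.5 bases) runs lowest at short distances, and that of the CHAPIR only peaks (green, median 208.5 bases) runs highest.

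Within single genes the same order appeared. Peaks were paired by gene, chromosome and strand, so those of a pair could lie in 3' UTRs of different transcripts. In the 249 genes with a control only 3' UTR peak and a CHAPIR 3' UTR peak elsewhere, the CHAPIR peaks lay only toward the gene end in 136 (54.6%, interval 48.4% to 60.7%), only toward the stop codon in 81 (32.5%) and on both sides in 32. The nearest CHAPIR peak was a median of 385 bases away. The imbalance lay with the CHAPIR peaks that no NC peak touched, toward the gene end in 82 of 125 genes (65.6%) and toward the stop codon in 34 (27.2%). CHAPIR peaks that an NC peak overlapped were toward the gene end in 74 of 154 genes (48.1%) and toward the stop codon in 68 (44.2%), and overlapped NC peaks gave 66 and 61 of 138. Seen from the other side, NC 3' UTR peaks lay only toward the stop codon from CHAPIR only peaks in 186 of 275 genes and only toward the gene end in 66. The CHAPIR list had this order within itself too: its overlapped 3' UTR peaks lay only toward the stop codon from its CHAPIR only peaks in 127 of 180 genes (70.6%) and only toward the gene end in 42.

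Kcnj5, which encodes an atrial and pacemaker potassium channel subunit, is an example, with a control only peak of 597 bases (3.69-fold) and a CHAPIR peak of 150 bases (6.09-fold) 268 bases further toward the gene end. Esrrg, a nuclear receptor of mitochondrial gene programs, had an NC peak of 61 bases (2.22-fold) and a CHAPIR peak 137 bases downstream (6.24-fold). Fstl1, which encodes a secreted glycoprotein of fibroblasts and epicardium, had an NC peak at 1.71-fold and a CHAPIR peak 89 bases downstream at 3.83-fold. Zfp445 went the other way, with its CHAPIR peak (2.90-fold) 1045 bases toward the stop codon from the NC peak (3.22-fold). The median fold, FDR and width also differed between these sets of peaks, and their part in the order was not tested.

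**Figure D4:**
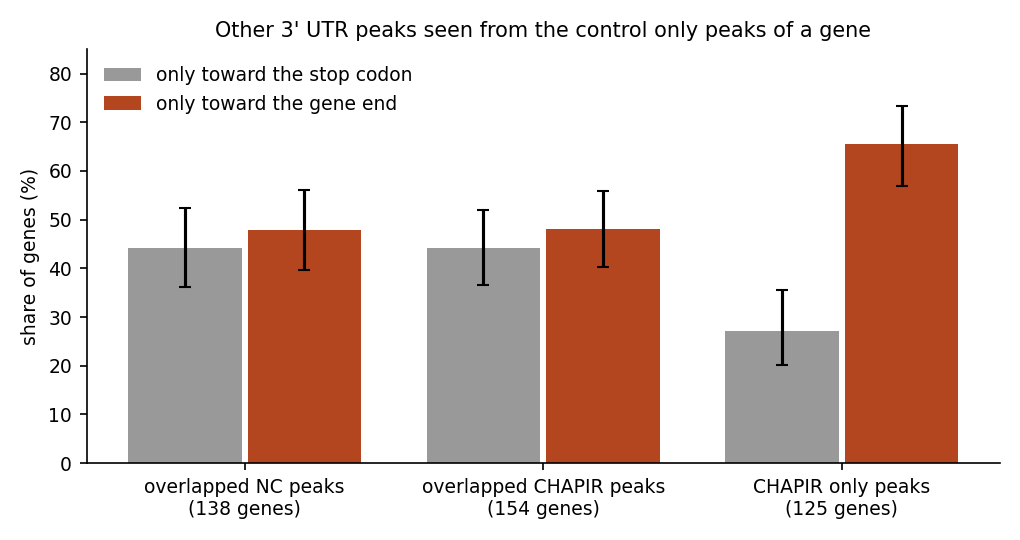
Share of genes (percent) in which other 3' UTR peaks lay only toward the stop codon (grey) or only toward the gene end (orange) from the control only peaks of the same gene. Error bars are 95% Wilson intervals, which cover counting error only. The pairs of bars are level for overlapped NC and overlapped CHAPIR peaks, and the CHAPIR only peaks stand at 27.2% and 65.6%.

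Most control only peaks were not near misses of the overlap rule. The nearest CHAPIR peak on the same strand was a median of 47346 bases away (quartiles 1422 and 214640), 75 of 1703 positions (4.40%) had one within 100 bases and 274 (16.1%) within 500. Just inside the rule, a peak of Kat14, a histone acetyltransferase gene, abutted a CHAPIR peak with no base between them, and peaks of Meis2, Cul5, Dph3 and Lrrc8a were 4 to 7 bases away, at 1.93-fold to 2.89-fold. Just outside it, peaks of Mitf, Cd3eap, Man2a2, Ppp3ca and another transcript of Kat14 shared 1 base with a CHAPIR peak, at 2.48-fold to 29.5-fold. Of the overlapped positions, 348 of 2126 (16.4%) had fewer than 50% of their bases covered.

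By function, control only 3' UTR peaks were most frequent on genes for zinc finger proteins and chromatin regulators and least frequent on those for respiratory chain and sarcomere proteins. The measure was the share of genes holding such a peak among those with any NC 3' UTR peak, which was 49.5% (1037 of 2097) over all genes. Gene lists were defined by naming patterns or by role. They describe the lists, and no list was tested. The count of genes with a CHAPIR 3' UTR peak that no NC peak touched is set beside some of the lists. It is given out of the genes with any peak in either list, and it was 1394 of 6653 over all genes. That base is not the one of the control only shares, so these counts and those shares are not on a common scale.

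Zinc finger genes of the Zfp series, mostly DNA-binding repressors, held a control only peak in 28 of 36 (77.8%, interval 61.9% to 88.3%). Of the 28, 15 had no CHAPIR peak, beside 649 of 1037 (62.6%) over all genes with a control only peak. CHAPIR only 3' UTR peaks were on 10 of 122 Zfp genes with any peak. The best control only peaks of the 28 genes had a median fold of 4.40 and ran from 1.37-fold in Zfp106 to 14.5-fold in Zfp617 and Zfp959. Those with the smallest FDR were Zfp219 (3.97-fold), Zfp362 (5.12-fold), Zfp445, Zfp180 (4.83-fold), Zfp790 (10.5-fold) and Zfp60 (7.08-fold). In 7 of the 28 genes the best peak had an FDR at or under 1e-05. The list's share stood at 57.1% (12 of 21) when the NC list was shortened to the length of the CHAPIR list by p-value, beside 33.2% over all genes.

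Chromatin regulators held one in 19 of 26 genes (73.1%, interval 53.9% to 86.3%). Of the 19, 13 had no CHAPIR peak, beside 62.6% over all genes with a control only peak. CHAPIR only 3' UTR peaks were on 14 of 100 chromatin genes with any peak. The 19 included the remodeller gene Chd2 (6.08-fold), the methyltransferase gene Setd6 (3.83-fold), the bromodomain genes Brd2 (7.51-fold) and Brd8 (3.89-fold), the histone demethylase gene Kdm4b (3.75-fold) and the Polycomb-associated gene Asxl2 (3.38-fold). Only 2 of the 19 best peaks reached an FDR of 1e-05. At that FDR in both lists the share was 3 of 9 genes (33.3%), beside 39.2% over all genes. With the NC list shortened by p-value to the length of the CHAPIR list, it was 11 of 16 (68.8%), beside 33.2% over all genes. The high share was thus not seen at the strict FDR in both lists, but it was seen at equal list length.

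RNA-binding and splicing factors held one in 17 of 25 genes (68.0%), at a median fold of 2.40. CHAPIR only 3' UTR peaks were on 32 of the 131 genes of that list with any peak. The 17 included the splicing helicase gene Dhx38 (6.11-fold), the splicing factor gene Srsf10 (3.64-fold), the fragile X family gene Fxr2 (2.38-fold) and the deadenylase subunit gene Cnot11 (4.96-fold). Phosphatases stood at 16 of 26 (61.5%), with Ptprb of endothelium at 5.19-fold and the glycogen-targeting subunit gene Ppp1r3b at 6.54-fold. Regulators of small GTPases and Rab traffic stood at 22 of 40 (55.0%), with Tbc1d10c, a Rab GTPase-activating protein gene, at 15.0-fold. These intervals include the share of all genes.

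Several groups lay close to the 49.5% of all genes. Ubiquitin ligases and deubiquitinases held a control only peak in 33 of 66 genes, with Rnf146 (3.65-fold) and Klhl18 (6.17-fold) beside Fbxo32 and Trim56. Solute carriers stood at 13 of 26, with the choline transporter gene Slc44a1 at 4.78-fold and the taurine transporter gene Slc6a6 at 2.23-fold. Transcription factors outside the Zfp series stood at 28 of 57 (49.1%), among them the paired forkhead genes Foxk1 (7.06-fold and 4.11-fold at 2 sites) and Foxk2 (7.51-fold), neither with a CHAPIR peak, and Sox4 (4.21-fold).

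Kinases were below it, with 18 of 54 (33.3%, interval 22.2% to 46.6%). Of the 18, 11 had no CHAPIR peak, beside 62.6% over all genes with a control only peak. CHAPIR only 3' UTR peaks were on 30 of 127 kinase genes with any peak. Map2k7, an activator of JNK, had a peak of 568 bases at 4.69-fold, the autophagy kinase gene Ulk1 had 5.90-fold and the receptor gene Ephb3 had 7.94-fold. Matrix and adhesion genes stood at 9 of 27 (33.3%). Tns3 led them by FDR, and the integrin genes Itga9 (2.95-fold) and Itga1 (2.61-fold) and the membrane protease gene Mmp14 (5.54-fold) were among the rest.

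The core genes of heart muscle had few. Sarcomere and Z-disc genes held a control only peak in 3 of 17 (17.6%, interval 6.19% to 41.0%), and all 3 had CHAPIR peaks on the gene. Xirp1, an intercalated disc protein gene, had 2.1-fold, the thin filament capping gene Tmod1 had 1.59-fold and the tropomyosin gene Tpm1 had 2.71-fold. None of 11 nuclear-encoded oxidative phosphorylation genes with an NC 3' UTR peak held one (0%, interval 0% to 25.9%). At an FDR of 1e-05 or less in both peak lists, 1 of 8 such genes did (12.5%), beside 39.2% over all genes. Of the 72 oxidative phosphorylation genes with any peak, 26 had a CHAPIR 3' UTR peak that no NC peak touched. Fatty acid and glucose metabolism stood at 4 of 17 (23.5%). Its leading gene, Cpt1a, which encodes the gatekeeper of mitochondrial fatty acid import, had control only peaks at 4.27-fold and 2.57-fold and no CHAPIR peak, and the others were Acacb (1.94-fold), Ppara (2.36-fold) and Esrrg. Of 4 genes with an NC 3' UTR peak that matched the naming pattern of ribosomal proteins, 1 held a control only peak, Rps6kb2, which encodes a kinase, so no ribosomal protein gene held one.

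Calcium handling genes stood at 3 of 9, with the T-type calcium channel gene Cacna1h at 5.07-fold and the inositol trisphosphate receptor gene Itpr2 at 7.33-fold among them. Ion channel genes stood at 7 of 13 (53.8%), and besides Kcnj5 they included Kcnj2, of the inward rectifier current (2.67-fold), and Kcnd2, of the transient outward current (5.44-fold, no CHAPIR peak). Among 6 fetal and stress genes, 3 held one, namely Xirp1, Tgfb2 (4.29-fold) and Nmrk2, a nicotinamide riboside kinase gene, whose peak (chr10:81198588-81198917, 9.92-fold) was its only line in either list.

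**Figure D5:**
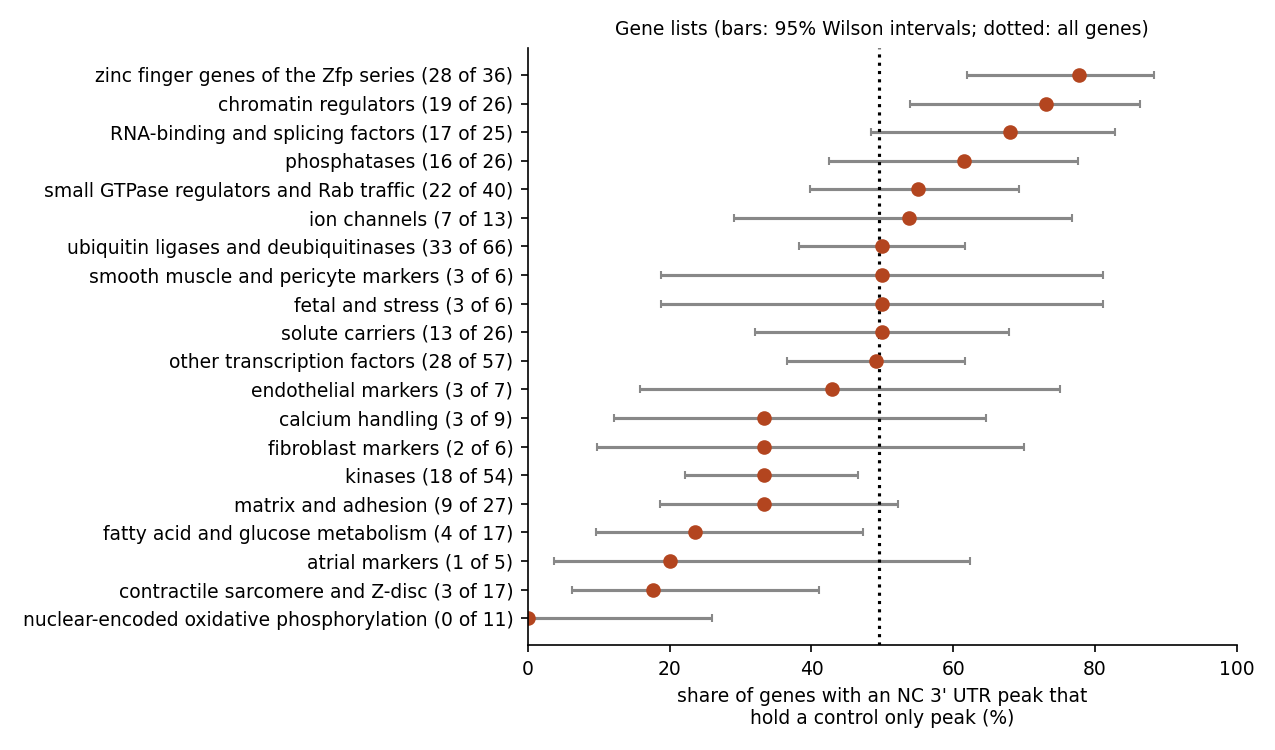
Share of genes (percent) that held a control only peak, of the genes in each list with any NC 3' UTR peak, with 95% Wilson intervals that cover counting error only. Lists with at least 5 such genes are drawn, and the dotted line is the share over all genes, 49.5%. Zfp genes (77.8%) and chromatin regulators (73.1%) stand highest and oxidative phosphorylation genes (0%) lowest.

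Marker genes of other cell types were too few for more than their values. All 3 adipocyte and glial markers with an NC 3' UTR peak held a control only one, on genes without a CHAPIR peak, among them the lipid droplet genes Cidea (2.75-fold) and Plin1 (17.2-fold). Endothelial markers stood at 3 of 7 (Erg, Cldn5 and Tek), smooth muscle and pericyte markers at 3 of 6 (Mcam, Notch3 and Pdgfrb), fibroblast markers at 2 of 6 (Ddr2 and Fstl1), atrial markers at 1 of 5 (Dkk3) and macrophage markers at 0 of 1. The amount of each cell type in the 2 samples was not measured, and its part in the peak lists was not tested.

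Gsk3b, which encodes a kinase that restrains cardiac growth, held a control only 3' UTR peak (chr16:38242997-38243177, 181 bases, 6.35-fold, FDR 7.76e-07). Its other NC peak, in the 5' UTR at 2.39-fold, was not touched by a CHAPIR peak either, and the CHAPIR list had no line on Gsk3b. Parp10, an ADP-ribosyltransferase gene, was not in the set, since both lists placed its 3' UTR peak at 1 position (chr15:76233003-76233212), at 3.49-fold in NC and 4.58-fold in CHAPIR. Mettl3 and Nfatc4 had no peak in either list, and no gene of the m6A machinery had an NC 3' UTR peak.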

How the data were processed

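The 2 deposited peak lists, 1 per condition, were analysed. Cutadapt removed adaptors, HISAT2 aligned the reads and exomePeak called peaks, per the labels' protocols, with 1 immunoprecipitated and 1 input library each. Per the submitters' processing notes, HISAT2 was 2.1.0 and the build GRCm38. The peak caller's version, options and use of strand were not stated in the labels. The fold in the deposited lists is a ratio, immunoprecipitated over input. The authors' p-value and FDR for each peak are in the deposited lists too. An FDR of 0 is too small to be written. Both were used only within a list. Depth is unknown.

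Starts were raised by 1 base, because 181 NC lines and 386 CHAPIR lines began 1 base before a RefSeq gene span, against 34 and 98 at it. Overlap of exonic blocks (at least 1 base, same strand) was computed in Python 3.11.15 with pandas 2.3.3 and numpy 2.4.6. It recovered the number of shared bases in 500 of 500 simulated pairs of peaks, overlapping or not. Wilson intervals came from scipy 1.17.1 and figures from matplotlib 3.10.9. RefSeq held 1013 of the 1037 gene symbols, and 21 more by an older symbol.

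The members, gene lists and alternatives were chosen with earlier results of these data known. Named genes were the 10 of smallest FDR, the 10 further ones of highest fold, the 5 with most sites, the 5 nearest to and just past the overlap rule, the 5 widest, up to 6 per list by FDR and a fixed set, without clone or model names. Some genes that this rule names are left out of the text. Zfp106, Zfp617 and Zfp959, the 3 genes with printed sequences and single values beside them were chosen after their values were seen. A gene's value is that of its control only peak of smallest FDR. Sequence came only from the RefSeq promoter table. It was looked up for the control only peak of smallest FDR of each gene, without chromosome 18. Motifs were therefore searched in 3 peaks alone, and positions along whole 3' UTRs were not analysed here.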

Additional observations from a re-analysis of the deposited data

How the results depend on the processing

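No paired analysis was possible because each condition had 1 immunoprecipitated library. The share of NC 3' UTR lines without a CHAPIR overlap was 42.5% when a CHAPIR peak within 100 bases counted as shared, 53.4% when 50% of the NC peak had to be covered, and 46.7% over merged sites (1144 of 2450), an alternative added after seeing the data. With both lists kept to an FDR of 1e-05 or less, 629 lines of 392 genes remained in the set (35.5%), at a median fold of 4.22 and a median width of 268 bases, and 68.4% of the genes had no CHAPIR peak. Only 268 of those genes were among the 1037, because a stricter CHAPIR list touches fewer NC peaks. With that FDR in the NC list alone the values were 360 lines, 233 genes and 20.3%. With a fold of at least 4 in both lists they were 756 lines, 501 genes and 53.0%. With the NC list kept to its smallest p-values, as many as the CHAPIR list has, they were 725 lines, 461 genes, 28.9%, a fold of 3.79, a width of 210 bases and 59.0% of genes without a CHAPIR peak. That kept NC p-values up to 2.57e-05, while those of the CHAPIR list ran up to 0.00339. Ignoring strand, counting positions or dropping sites linked by other NC lines left the shares and medians within their intervals, as whole spans did the share, the only such value run with them. CHAPIR peaks lay toward the gene end more often than toward the stop codon under the 6 settings run for this result, 43 against 19 genes at the strict FDR and 76 against 37 at equal length. Of the lists, RNA-binding factors stood at 42.9%, kinases at 20% and matrix genes at 11.1% at equal length, beside 33.2% over all genes. Unknown depth and single libraries limit all of these values.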

Other observations

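A control only 3' UTR peak of P2rx7, which encodes an ATP-gated ion channel, covered 61 bases at 10.7-fold, with no CHAPIR peak on the gene. It was chosen after its values were seen, because it overlapped the start of a RefSeq miRNA hairpin, that of Mir8115, while the mature miRNA lay outside the peak. By chromosome, the share of NC 3' UTR positions that were control only ran from 34.0% on chromosome 18 to 55.2% on chromosome 19. It was 49.0% on the X chromosome, with 24 of 49 positions.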
